A study of Schmidtea mediterranea with 35 samples.

Results

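The 12 libraries described here are the p53 RNAi libraries among the 35 of the study. They hold RNA from X1 cells of the planarian flatworm Schmidtea mediterranea, 4 libraries each at days 6, 9 and 13 of treatment, and were chosen by their RNAi label alone. All animals belonged to the clonal line CIW4, an asexual laboratory strain, and were adults kept at 20 °C. They were fed 3 times, at intervals of 3 days, with bacteria making double-stranded RNA against p53. The groups set beside them were fed in the same way against zfp1 (12 libraries) or against unc22, the non-targeting control (11 libraries, of which 3 are from day 13). Each sorted-cell library was made from 100 ng of RNA. How many animals went into a library is not given in the sources used here.

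Neoblasts are the dividing cells of adult planarians and the source of every other cell type, so that a worm replaces its tissues from them throughout life. X1 is the Hoechst gate that holds cycling cells with replicated DNA, most of which are neoblasts. p53 is a transcription factor known in vertebrates for arresting or removing cells with damaged DNA, and in planarians its knockdown is known to disturb both the maintenance of neoblasts and the making of their progeny. zfp1 encodes a zinc finger protein known from neoblasts that will form epidermis. The comparisons asked how the X1 transcriptome changed from one sampling day to the next while p53 was being knocked down, and whether the step between days 6 and 9 or that between days 9 and 13 held most of the change.

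The deposited table listed 25462 transcripts by identifiers that begin with SMED30, in RPKM, which scales reads by transcript length and sequencing depth. It pairs no identifier with a gene name. The p53 transcript itself, the neoblast and progeny markers and the pathway genes therefore could not be looked up, and neither the knockdown nor the X1 label could be checked against the data. Transcripts are described by identifier, level and behaviour, with no role given to any of them. Whole reads recovered from the values summed to between 4452069 and 18100630 per p53 RNAi library. In every one of these libraries SMED30032887 had the highest RPKM. The transcript with the most reads, whose identifier was not recorded, took between 12.9% and 20.5% of the total. Day 9 replicate 4 stood apart from its group, since 345 of the 8778 transcripts averaging at least 5 RPKM lay 1 or more on the log2 scale from their day 9 mean. In the other 11 libraries this count was at most 57. Deviations from the day means were also shared across days, with correlations, over the same 8778 transcripts, of 0.70 to 0.76 among day 6 replicate 1, day 9 replicate 3 and day 13 replicate 2 (0.49 to 0.51 over all transcripts tested). These 3 correlated with log transcript length at 0.31 to 0.45. Counts are therefore also given without each library that moved them.

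From day 9 to day 13 the X1 transcriptome of p53 RNAi animals changed, whereas no transcript passed the test from day 6 to day 9. Of 19206 transcripts tested with limma on log2(RPKM + 1), 1569 (8.17%) had a Benjamini-Hochberg adjusted p under 0.05, here termed called, between days 13 and 9. Of these, 940 rose (4.89%) and 629 fell (3.28%). In the earlier step 0 transcripts were called (0%), with the lowest adjusted p at 0.06. At an unadjusted p under 0.05 the counts were 4761 (24.8%) for day 13 against day 9 and 2177 (11.3%) for day 9 against day 6. limma-voom, a test on the recovered reads, called 1960 transcripts in the later step and 3 in the earlier one. Both steps compared 4 libraries with 4 and used 1 shared estimate of the spread per transcript, so that the standard error was the same in each by construction, with a median of 0.19.

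The sizes of the changes differed less than the counts of calls. The median absolute change was 0.23 on the log2(RPKM + 1) scale from day 9 to day 13 and 0.16 from day 6 to day 9. Since the later step lasted 4 days and the earlier one 3, this was 0.058 and 0.052 a day. Both medians include the spread between libraries (median standard error 0.19 in each step), which does not grow with the days elapsed. The values a day are therefore not rates of change and do not compare the speed of the steps. The tails were further apart. A change of at least 1 on the log2 scale was seen in 373 transcripts between days 13 and 9 and in 182 between days 9 and 6. Among the called transcripts of the later step, 735 rose and 339 fell by at least 1.5-fold on this scale, 200 rose and 72 fell by at least 2-fold, and 7 rose and 2 fell by at least 4-fold. Among all 19206 tested, 1375 rose and 800 fell by at least 1.5-fold in the later step. In the earlier step 339 rose and 659 fell by that much. By at least 4-fold, 7 rose and 4 fell in the later step, and 3 rose and 2 fell in the earlier one. The scale understates the change of weakly expressed transcripts. The 4 libraries of day 13 did not overlap with the 4 of day 9 for 1465 of the 1569 called transcripts, and for 2943 of all 19206 tested (15.3%). For day 9 against day 6 this held for 864 of those tested (4.50%).

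**Figure D1:**
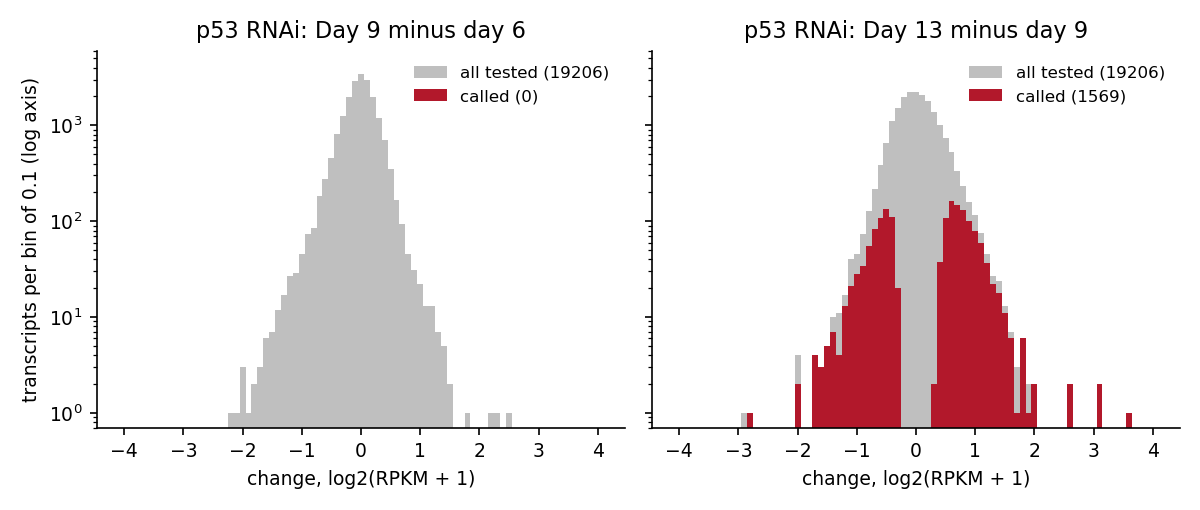
Histograms of the change per transcript under p53 RNAi on the log2(RPKM + 1) scale, day 9 minus day 6 on the left and day 13 minus day 9 on the right. Grey bars count all 19206 transcripts tested and red bars those called, with the vertical axis logarithmic. The right panel is wider and holds 1569 calls, with gaps around 0, while the left panel holds none.

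Single libraries moved these counts. For day 13 against day 9 the number of calls was 701 without day 9 replicate 2, 852 without day 13 replicate 1, 980 without day 13 replicate 2, 646 without day 13 replicate 3, 807 without day 13 replicate 4, and 2377 without day 9 replicate 4, the library that stood apart. In that last case 1166 rose and 1211 fell, so that rises no longer outnumbered falls. For day 9 against day 6 it was 182 without day 9 replicate 1, 3 without day 6 replicate 4, 1 without day 9 replicate 4, and 0 without any one of the other 5 libraries of these days. With the first component of the deviations from the day means as a covariate, 3990 transcripts were called for day 13 against day 9 (1921 higher and 2069 lower) and 112 for day 9 against day 6. That covariate was chosen after seeing the data. The later step had more calls than the earlier one under all 28 alternatives tried, including these. The alternatives reuse the same libraries and are not separate tests. The fold minimum took a subset of the reported calls, so its 0 calls in the earlier step were fixed in advance.

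**Figure D2:**
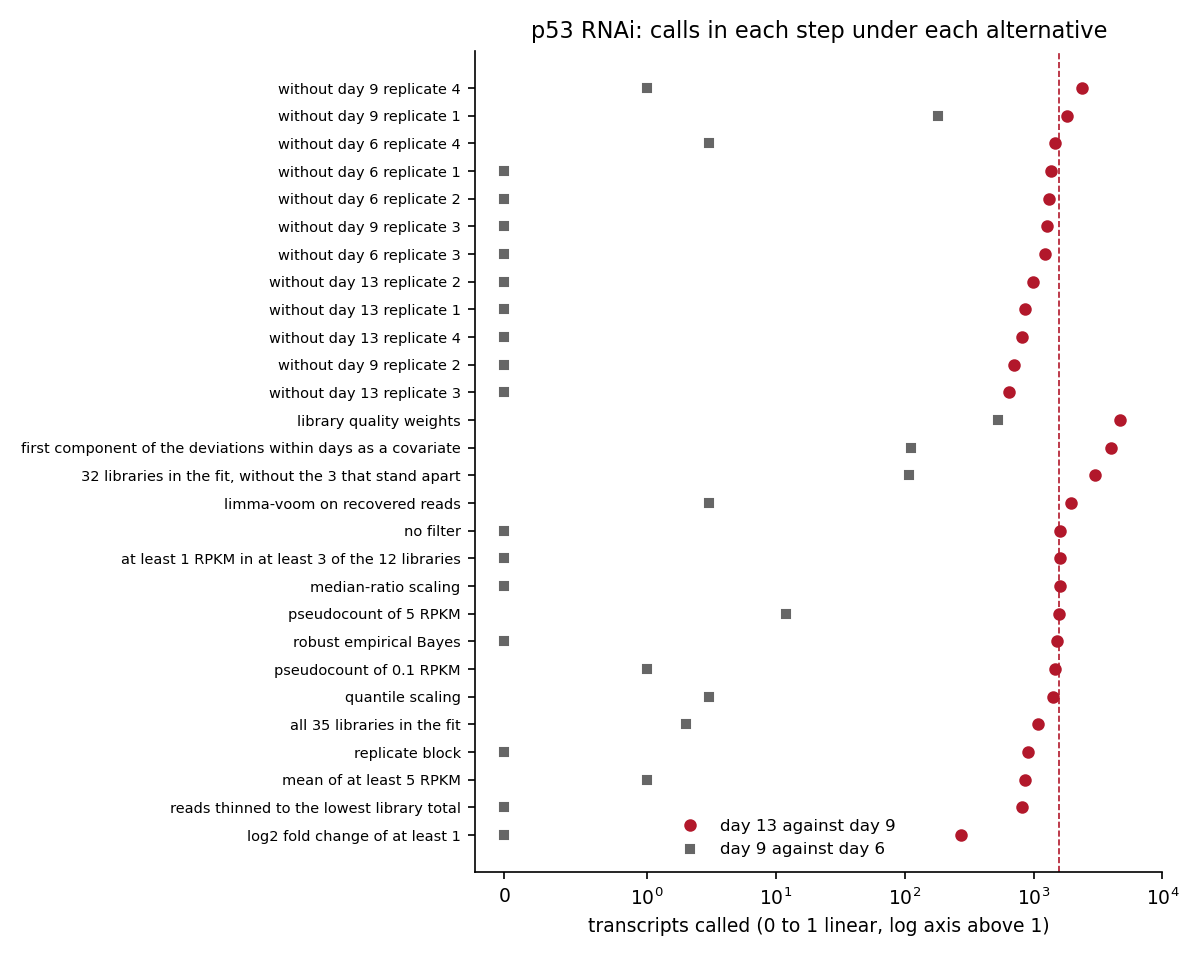
Transcripts called under p53 RNAi for day 13 against day 9 (red circles) and day 9 against day 6 (grey squares), 1 row for each of the 28 alternatives. The horizontal axis is linear from 0 to 1 and logarithmic above, and the dashed line marks the 1569 calls reported for the later step. The later step lies between 272 and 4704 calls and the earlier step between 0 and 525, and in each row the red circle is to the right.

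A difference between the counts of the 2 steps is not a test, because both used the day 9 libraries. The change of step itself, the later difference minus the earlier one in each transcript, was called for 146 transcripts (0.76%), of which 97 had the more positive change after day 9 (0.505%) and 49 the more negative (0.255%). With median-ratio scaling these counts were 96 and 78. The count was 27, 33 and 18 without day 6 replicates 1, 2 and 3, 734, 11 and 25 without day 9 replicates 1, 2 and 3, and 25, 25, 15 and 24 without day 13 replicates 1, 2, 3 and 4. It was 1142 in the fit without the 3 libraries of other treatments that stand apart, and, in alternatives chosen with the data in view, 2637 with library quality weights and 1865 with the covariate named above. The change of step does not test which step was larger, since a day 9 level below or above both other days also gives one. In the 97, the median change was −0.36 on the log2 scale up to day 9 and 1.14 after it. In the 49, these medians were 0.49 and −0.80. The later change was the larger in absolute size in 88 of the 97 and 42 of the 49. No allowance was made for the unequal lengths of the steps.

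The rises of the later step were led by a few transcripts that sat at a low, even level at days 6 and 9 and about 10 or more times higher at day 13. SMED30013183, the transcript with the largest rise, had 57.3, 63.9, 56.8 and 68.4 RPKM in the 4 libraries of day 13, against 5.77, 3.88, 4.98 and 2.47 RPKM in those of day 9. At day 6 it had 5.23, 4.81, 5.44 and 6.34 RPKM. Each day 13 library was far above all 8 earlier ones, which overlapped between days 6 and 9. The mean was 61.6 ± 5.57 RPKM at day 13 and 4.28 ± 1.43 RPKM at day 9 (SD, n = 4 each), a 14.4-fold ratio. The log2 change was 3.61 ± 0.18 (SE; limma adjusted p = 1.7e-07), while that from day 6 to day 9 was −0.33 ± 0.18 (limma adjusted p = 0.51).

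SMED30008091 had 27.8, 26.9, 28.6 and 27.9 RPKM at day 13, against 1.70, 2.89, 2.38 and 2.66 RPKM at day 9. The day 13 libraries lay within a narrow band, and the ratio of the means was 11.6. The log2 change was 3.09 ± 0.13 (limma adjusted p = 3.4e-08), and at day 6 the transcript had stood at 2.87, 2.2, 2.84 and 2.85 RPKM. SMED30030712, which with SMED30013183 had the largest rise over the whole span, had 4.19, 5.37, 3.98 and 4.95 RPKM at day 6, 5.11, 4.57, 4.98 and 4.55 RPKM at day 9, and 42.6, 46.1, 49.6 and 53.6 RPKM at day 13. Its level at day 9 fell within the range of day 6, and its whole rise lay in the later step. From day 9 to day 13 the log2 change was 3.07 ± 0.11 (limma adjusted p = 1.5e-08), and from day 6 to day 9 it was 0.05 ± 0.11 (limma adjusted p = 0.92).

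All of these 3 transcripts had a change of step past the threshold, of 3.94 ± 0.31, 3.22 ± 0.22 and 3.02 ± 0.20 on the log2 scale for SMED30013183, SMED30008091 and SMED30030712 in that order (limma adjusted p = 5.5e-05, 2.1e-05 and 2.0e-05). The other large positive change of step was in SMED30010350. It had 1.74, 3.07, 4.87 and 2.23 RPKM at day 6, 1.48, 0.595, 1.03 and 0 RPKM at day 9, and 8.90, 5.10, 15.2 and 8.77 RPKM at day 13. Its day 9 libraries were all below those of day 6, on 0 to 6 reads each, and its day 13 libraries were above both. The change of step was 3.73 ± 0.58 (limma adjusted p = 0.022), and it was no longer called without day 9 replicate 2 (limma adjusted p = 0.12) or with reads thinned to the lowest library total (limma adjusted p = 0.067).

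**Figure D3:**
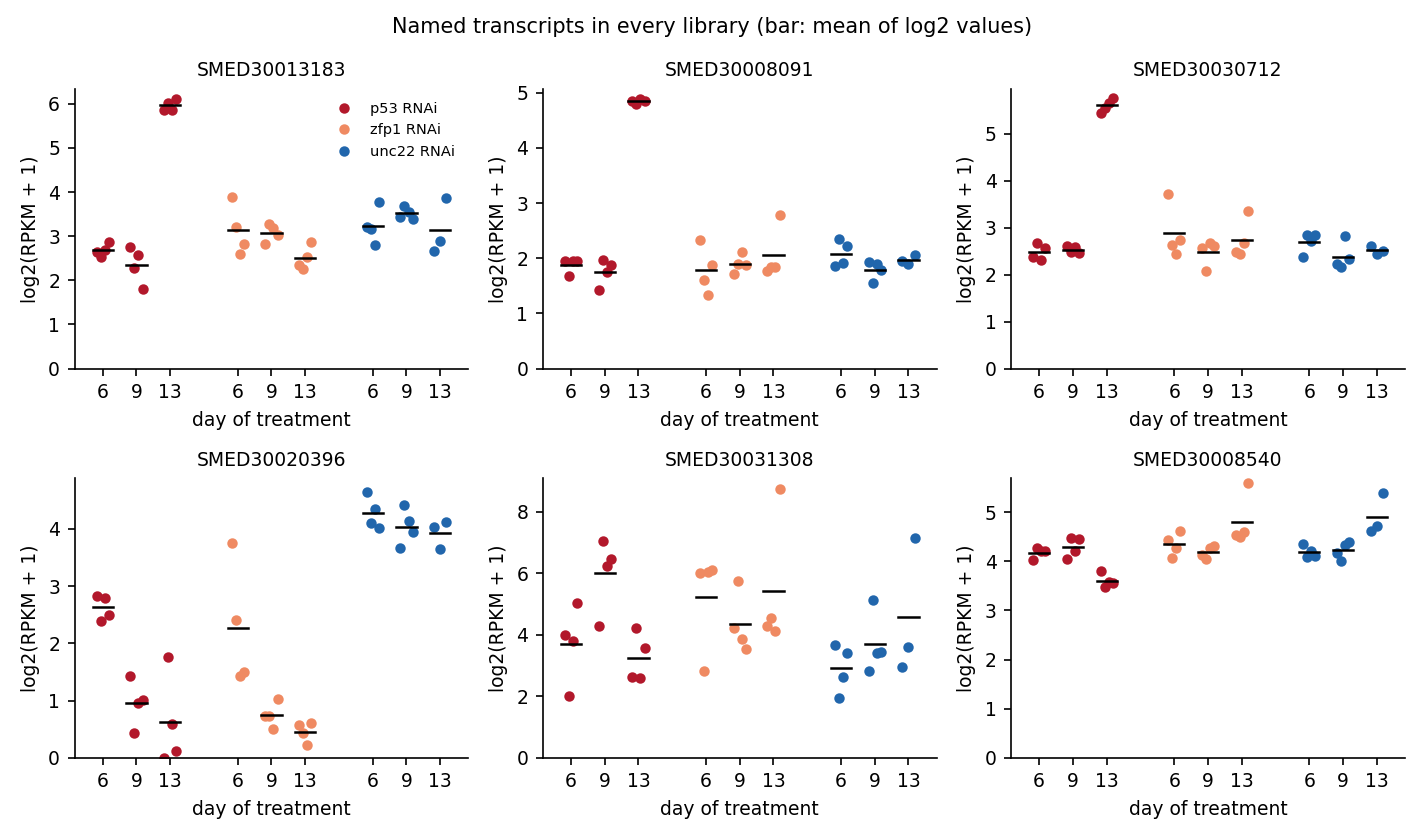
Levels of 6 transcripts in every library, as log2(RPKM + 1), by day of treatment for p53 RNAi (dark red), zfp1 RNAi (orange) and unc22 RNAi (blue). Each point is a library and each bar the mean of a group. In the upper row the 4 p53 RNAi libraries of day 13 stand above all other libraries, and SMED30008540 is lower in them than in any other library.

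The transcripts with the largest falls after day 9 had their highest means at day 9 and were uneven between libraries. Choosing transcripts by a fall from day 9, or by a negative change of step, itself favours high values on that day. SMED30031308 had 5.20, 17.6, 4.97 and 10.9 RPKM at day 13, against 18.4, 132, 74.8 and 87.9 RPKM at day 9. The groups did not overlap, but day 13 replicate 2 and day 9 replicate 1 nearly met. At day 6 the transcript had 14.7, 2.98, 12.8 and 31.4 RPKM, a range that covers all of day 13 and reaches above day 9 replicate 1. Neither its change from day 6 to day 9, 2.32 ± 0.65 on the log2 scale (limma adjusted p = 0.24), nor its change of step passed the test (limma adjusted p = 0.054). The log2 change of the later step was −2.76 ± 0.65 (limma adjusted p = 0.022), with an adjusted p of 0.077, 0.065 and 0.073 by limma without day 9 replicate 2, day 13 replicate 1 and day 13 replicate 3, and of 0.074 in the fit of all 35 libraries. It was also high in libraries of the other treatments. At day 6 of zfp1 RNAi it had 62.6, 6.08, 65.2 and 67.5 RPKM, and in zfp1 RNAi day 9 replicate 2 it had 52.2 RPKM. At day 13 it had 427 RPKM in zfp1 RNAi replicate 5 and 140 RPKM in unc22 RNAi replicate 5.

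SMED30021636 rested on few reads. It had 0, 0.407, 0 and 0.158 RPKM at day 13 (0 to 2 reads), against 0.971, 4.11, 2.04 and 13.0 RPKM at day 9 (2 to 38 reads), and 0, 0, 0.458 and 0.917 RPKM at day 6. It was above 1 RPKM in 3 of the 4 day 9 libraries and in none of the other 8, and was highest in day 9 replicate 4, the library that stood apart. The log2 change of the later step was −2.01 ± 0.46 (limma adjusted p = 0.020), and the adjusted p was 0.061, 0.054, 0.061 and 0.050, at or above the threshold, without day 9 replicate 2 and without day 13 replicates 1, 3 and 4. Its change of step was −3.83 ± 0.80 (limma adjusted p = 0.049), and that call was lost in 17 of 27 alternatives.

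SMED30029352 followed the same course, with 1.49, 1.08, 3.17 and 4.20 RPKM at day 6, 3.36, 9.17, 7.12 and 8.58 RPKM at day 9, and 0.657, 1.19, 0.818 and 1.26 RPKM at day 13. Day 9 overlapped with day 6 in 1 library and lay above all of day 13. Its rise from day 6 to day 9 was not called (limma adjusted p = 0.21). Its change of step was −3.20 ± 0.54 (limma adjusted p = 0.031), with the call lost in 9 of 27 alternatives, among them without day 6 replicates 1 or 3, without day 9 replicates 2 or 3, and without any one library of day 13 (adjusted p by limma 0.053 to 0.14).

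Over the whole span, day 13 against day 6, 1426 transcripts were called (7.42%), 867 higher (4.51%) and 559 lower (2.91%). The count was 922, 945, 760 and 926 without day 6 replicates 1, 2, 3 and 4, 832, 679 and 756 without day 13 replicates 1, 3 and 4, and 2151 without day 9 replicate 4, which enters only through the shared spread. In the 867 that rose, the median change over the span was 0.75 on the log2 scale, made up of median changes of 0.12 up to day 9 and 0.63 after it. The later part was the larger one in 757 of them (87.3%). In the 559 that fell, the median was −0.68 over the span, −0.21 up to day 9 and −0.44 after it, and the later part was the larger in 387 (69.2%). These splits describe transcripts chosen by the sum of both steps, and share libraries with the counts above.

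Of the large falls over the span, that of SMED30020396 lay mostly in the earlier step. It had 6.12, 4.27, 5.91 and 4.62 RPKM at day 6, 1.71, 0.344, 0.931 and 1.01 RPKM at day 9, and 0, 2.39, 0.515 and 0.0928 RPKM at day 13. Every library of days 9 and 13 was below every library of day 6, and days 9 and 13 overlapped. The log2 change from day 6 to day 13 was −2.01 ± 0.33 (limma adjusted p = 0.0035). That from day 6 to day 9 was −1.67 ± 0.33 and did not pass over all transcripts tested (limma adjusted p = 0.13). In unc22 RNAi libraries the same transcript stood between 11.6 and 24.1 RPKM on all 3 days, above every p53 RNAi library. In zfp1 RNAi libraries it had 12.4, 4.33, 1.68 and 1.82 RPKM at day 6, 0.653, 0.655, 0.419 and 1.05 RPKM at day 9, and 0.484, 0.358, 0.161 and 0.524 RPKM at day 13.

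SMED30017376, the other large fall over the span, had 9.98, 5.77, 11.0 and 10.5 RPKM at day 6, 9.52, 7.67, 5.25 and 0.611 RPKM at day 9, and 1.10, 1.99, 0.782 and 1.13 RPKM at day 13. Of the day 9 libraries, replicate 4, the library that stood apart, was at the day 13 level, on 2 reads. The other 3 reached into the range of day 6 or lay just below it. The log2 change over the span was −2.19 ± 0.46 (limma adjusted p = 0.013), on 2 to 11 reads per library at day 13, and with reads thinned to the lowest library total it no longer passed (limma adjusted p = 0.12).

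The transcripts that rose after day 9 were mostly weakly expressed, and those that fell were mostly abundant. Abundance was taken from the zfp1 and unc22 RNAi libraries, leaving out the 3 of these that stand apart, so that it did not depend on the p53 RNAi values. The set tested did depend on them, since a transcript low elsewhere could pass the filter through p53 RNAi libraries of a single day. Through day 13 it could enter the class under 2 RPKM as a riser, and through day 9 as a faller. How many did so was not counted. By that measure the 940 risers had a median of 2.46 RPKM and the 629 fallers one of 22.7 RPKM, against 3.77 RPKM over all transcripts tested. Among transcripts under 2 RPKM, 412 of 7156 rose (5.76%) and 88 fell (1.23%). From 2 to 10 RPKM, 350 of 5537 rose (6.32%) and 149 fell (2.69%). From 10 to 50 RPKM the order was turned, with 150 of 4663 higher at day 13 (3.22%) and 217 lower (4.65%). At 50 RPKM and over, 28 of 1850 rose (1.51%) and 175 fell (9.46%). A transcript near 0 has little room to fall on the log2(RPKM + 1) scale. Among the 8778 transcripts averaging at least 5 RPKM over the p53 RNAi libraries, tested alone, 372 rose and 481 fell.

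**Figure D4:**
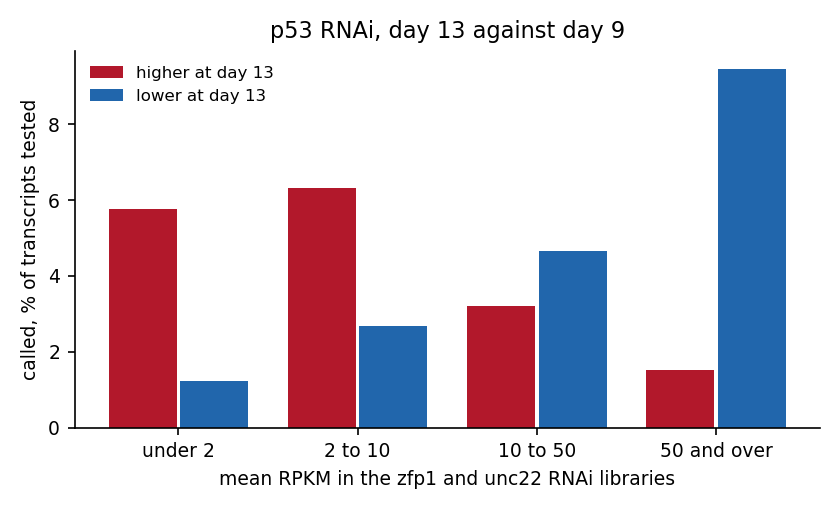
Share of tested transcripts called higher (red) or lower (blue) at day 13 than at day 9 under p53 RNAi, by mean RPKM in the zfp1 and unc22 RNAi libraries. The share called higher is 5.76% in the class under 2 RPKM and 1.51% in that of 50 RPKM and over, and the share called lower is 1.23% and 9.46% in the same classes.

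Transcript length set the lists apart less. The median was 1308 bases among risers, 1363 among fallers and 1074 over all tested. The share that rose was 3.88% under 1000 bases, 5.80% from 1000 to 2000, 5.89% from 2000 to 4000 and 5.39% at 4000 and over. The share that fell in the same classes was 2.36%, 3.98%, 4.50% and 3.23%. Both shares were lowest in the shortest class, where the median standard error was 0.23, against 0.14 in the longest.

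The detected transcriptome as a whole was of like size on the 3 days. At 1 RPKM or more there were 16055, 15681, 15810 and 15163 transcripts in the day 6 libraries, 15301, 15039, 15381 and 15301 in those of day 9, and 15400, 16021, 16030 and 15381 in those of day 13. Day 9 was lowest on average, but its libraries overlapped with those of day 6 and met those of day 13 at 15381. The difference of means was 452 transcripts between days 13 and 9 (exact two-sided permutation test, p = 0.057, adjusted p = 0.23 over 4 tests). Between days 9 and 6 it was −422 (exact two-sided permutation test, p = 0.11, adjusted p = 0.23), where the smallest p that 4 libraries against 4 allow is 0.029. The 100 most abundant transcripts took 40.0% ± 1.11 of reads at day 13 and 39.0% ± 2.94 at day 9 (SD, n = 4 each; exact two-sided permutation test, p = 0.57). At day 6 they took 38.5% ± 3.24, no further from day 9 than the spread (exact two-sided permutation test, p = 0.94).

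In animals fed against the other genes, the median level of the same transcripts moved far less between days 9 and 13. Their choice by the p53 RNAi change itself favours this, so the contrast is no test. The difference of changes is tested further on. The median level of the 940 risers was 4.75 ± 0.101 RPKM at day 13 and 2.13 ± 0.132 RPKM at day 9 in p53 RNAi libraries (SD over 4 libraries each), the days on which they were chosen. At day 6 it had been 2.51 ± 0.147 RPKM, so that no library of day 6 reached the range of day 13. In zfp1 RNAi libraries the median was 2.51 ± 0.284 RPKM at day 13 and 2.61 ± 0.0702 RPKM at day 9, and in unc22 RNAi libraries it was 2.32 ± 0.300 RPKM at day 13 (n = 3) and 2.28 ± 0.133 RPKM at day 9. The median change of these transcripts from day 9 to day 13 was −0.03 on the log2 scale under zfp1 RNAi and 0.04 under unc22 RNAi, against −0.04 and −0.01 over all transcripts tested. Without the 3 libraries that stand apart, the median change was −0.0037 under zfp1 RNAi and 0.10 under unc22 RNAi, against −0.01 and 0.02 over all transcripts tested. The share with a positive change was then 49.6% and 64.3% in these treatments, against 48.1% and 53.6% over all tested. Day 13 of unc22 RNAi was then replicates 1 and 4 alone.

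For the 629 fallers the median level was 16.7 ± 0.861 RPKM at day 13 and 25.4 ± 2.37 RPKM at day 9 in p53 RNAi libraries, and 21.8 ± 1.07 RPKM at day 6. Days 13 and 9 chose these transcripts, and with them the order of those 2 days and part of the height of day 9 above day 6. In zfp1 RNAi libraries it was 22.4 ± 0.914 RPKM at day 13 and 21.7 ± 1.24 RPKM at day 9, and in unc22 RNAi libraries 21.7 ± 0.783 RPKM and 22.1 ± 0.855 RPKM on these days. The median change from day 9 to day 13 was −0.01 on the log2 scale under zfp1 RNAi and −0.08 under unc22 RNAi, against −0.04 and −0.01 over all transcripts tested. Without the 3 libraries that stand apart it was −0.04 under zfp1 RNAi and −0.08 under unc22 RNAi, against −0.01 and 0.02 over all tested. The share with a positive change was then 40.7% and 32.3% in these treatments, against 48.1% and 53.6% over all tested. In bulk RNA of a sorted gate, fewer cells of a type and less RNA per cell cannot be told apart.

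**Figure D5:**
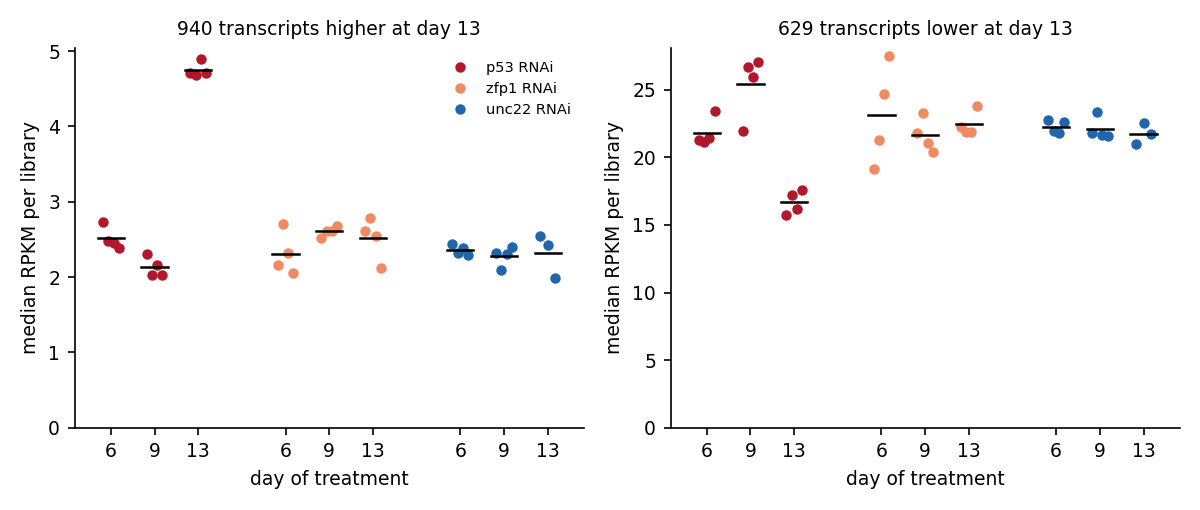
Median RPKM per library of the 940 transcripts called higher (left) and the 629 called lower (right) at day 13 than at day 9 under p53 RNAi, by day, for p53 RNAi (dark red), zfp1 RNAi (orange) and unc22 RNAi (blue). Points are libraries and bars group means. The lists were chosen on the p53 RNAi values of days 9 and 13, and the zfp1 and unc22 RNAi libraries lie between 1.98 and 2.78 RPKM on the left and between 19.1 and 27.5 RPKM on the right.

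Whether the later step differed from that of the other treatments was tested as a difference of changes in a fit of all 35 libraries. Against unc22 RNAi, 166 transcripts were called for day 13 minus day 9 (0.864%), 137 with the more positive change under p53 RNAi (0.713%) and 29 with the more negative (0.151%). Against zfp1 RNAi, which shares no library with either, there were 546 (2.84%), 373 more positive (1.94%) and 173 more negative (0.901%). For day 9 minus day 6 the difference from unc22 RNAi was called in 0 transcripts by limma, with 780 at an unadjusted p under 0.05 (4.06%), and limma-voom was not run on it. Within the same fit, day 13 against day 9 gave 1089 calls under p53 RNAi (5.67%), 24 under zfp1 RNAi (0.125%) and 50 under unc22 RNAi (0.26%). The sizes of change in that later step did not follow the counts. The median absolute change was 0.23 on the log2 scale under p53 RNAi, 0.25 under zfp1 RNAi and 0.24 under unc22 RNAi, and 373, 400 and 129 transcripts changed by at least 1. At an unadjusted p under 0.05 there were 3867 under zfp1 RNAi (20.1%) and 2054 under unc22 RNAi (10.7%). The 24.8% given above for p53 RNAi came from the fit of 12 libraries, so it is not directly comparable. Day 13 of zfp1 and of unc22 RNAi each included a replicate 5 that stands apart. These sizes and shares were not taken without those libraries, and unc22 RNAi had 3 libraries at day 13. In the fit of all 35 libraries, day 9 against day 6 gave 2 calls under p53 RNAi (0.0104%), 67 under zfp1 RNAi (0.349%) and 2 under unc22 RNAi (0.0104%).

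These counts also rested on single libraries. The difference from unc22 RNAi was 107 without p53 RNAi day 9 replicate 2, 110 without p53 RNAi day 13 replicate 3 and 71 without unc22 RNAi day 13 replicate 5, 1 of the 3 that stand apart. The difference from zfp1 RNAi was 291, 282, 275 and 307 without p53 RNAi day 9 replicates 2 and 4 and day 13 replicates 2 and 3, and 299, 323, 333 and 296 without zfp1 RNAi day 9 replicates 1 to 4. It was 1189 without zfp1 RNAi day 13 replicate 2 and 284 without zfp1 RNAi day 13 replicate 5. Without the 3 libraries that stand apart, 268 and 946 transcripts were called against unc22 and zfp1 RNAi.

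The transcripts with the largest positive differences were again the leading risers. SMED30013183 changed by 3.99 ± 0.36 more on the log2 scale under p53 RNAi than under unc22 RNAi (limma adjusted p = 7.0e-08) and by 4.19 ± 0.35 more than under zfp1 RNAi (limma adjusted p = 7.3e-09). Its level at day 13 was 4.06, 3.78, 4.81 and 6.27 RPKM in zfp1 RNAi libraries and 5.29, 6.42 and 13.6 RPKM in unc22 RNAi libraries, under any p53 RNAi library of that day. SMED30030712 differed by 2.94 ± 0.31 from unc22 RNAi (limma adjusted p = 6.1e-07), with 5.11, 4.47 and 4.71 RPKM in the unc22 RNAi libraries of day 13. SMED30008091 differed by 2.93 ± 0.27 from zfp1 RNAi (limma adjusted p = 5.8e-08). In these zfp1 RNAi libraries of day 13 it had 2.40, 2.60, 2.56 and 5.89 RPKM, so that the highest was still well below the p53 RNAi libraries.

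Of the negative differences from unc22 RNAi, SMED30008540 had the largest. It had 12.8, 10.2, 11.0 and 10.7 RPKM at day 13 of p53 RNAi, against 15.5, 21.3, 17.5 and 20.8 RPKM at day 9. Under unc22 RNAi it had 23.5, 25.4 and 40.9 RPKM at day 13, against 16.8, 15.1, 19.1 and 20.0 RPKM at day 9. The p53 RNAi libraries of day 13 were thus the lowest, and those of unc22 RNAi at day 13 above every one of day 9. The difference of changes was −1.38 ± 0.27 (limma adjusted p = 0.0075). Its fall under p53 RNAi was called by itself, at −0.69 ± 0.12 (limma adjusted p = 0.0056), and its change under unc22 RNAi was 0.69 ± 0.20 and was not called (limma adjusted p = 0.15).

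SMED30032654 showed a smaller difference of the same form. It had 10.5, 11.3, 9.97 and 12.8 RPKM at day 13 of p53 RNAi, against 16.6, 14.6, 14.7 and 15.4 RPKM at day 9, and 25.4, 22.8 and 30.7 RPKM at day 13 of unc22 RNAi, against 18.3, 18.7, 14.5 and 13.7 RPKM at day 9. Days 13 and 9 did not overlap in either treatment, but lay in opposite order. The difference was −1.09 ± 0.22 (limma adjusted p = 0.010), and without unc22 RNAi day 13 replicate 5 it was −0.98 ± 0.23 (limma adjusted p = 0.056).

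The largest negative differences from zfp1 RNAi were no longer called without 1 zfp1 RNAi library, among others. SMED30004214 had 56.6, 47.0, 46.9 and 61.0 RPKM at day 13 of p53 RNAi, against 55.2, 194, 138 and 169 RPKM at day 9. In zfp1 RNAi libraries it had 75.4, 77.8, 92.2 and 621 RPKM at day 13, against 33.6, 60.6, 44.1 and 48.6 RPKM at day 9, the highest being replicate 5, which stands apart. Day 9 of p53 RNAi reached well above day 13 in 3 of its 4 libraries. The difference of changes was −2.79 ± 0.72 (limma adjusted p = 0.031), and −2.07 ± 0.59 without that library (limma adjusted p = 0.073).

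SMED30024440 had 2.24, 1.29, 0.996 and 3.73 RPKM at day 13 of p53 RNAi, against 5.29, 10.8, 4.53 and 16.5 RPKM at day 9. In zfp1 RNAi libraries it had 4.86, 1.99, 11.0 and 53.1 RPKM at day 13, against 0.758, 1.27, 4.41 and 4.38 RPKM at day 9. Under p53 RNAi the days did not overlap, and under zfp1 RNAi they did. The difference was −3.32 ± 0.86 (limma adjusted p = 0.031), and −2.53 ± 0.74 without zfp1 RNAi day 13 replicate 5 (limma adjusted p = 0.082). Both calls were lost in 9 of 23 alternatives. For each transcript these included leaving out p53 RNAi day 9 replicates 2 or 4 or day 13 replicates 2 or 3, zfp1 RNAi day 9 replicate 1, or zfp1 RNAi day 13 replicate 5 (adjusted p by limma 0.060 to 0.082).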

How the data were processed

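PolyA RNA of X1 cells was sequenced, with the RNAi, day and replicate number of each library as the labels give them. Per the labels, the submitters left out 1 library with few reads. The measurements deposited by the authors are RPKM for 25462 transcripts. CASAVA 1.8.2, Bowtie and edgeR appear in the submitters' processing notes, without a stated role. Which transcript assembly was used is not given in the sources used here, and no genome was used. From the deposited RPKM values, whole read numbers were worked out by finding a whole length per transcript and a divisor per library, which left 100.0% of values within 0.01 of a whole read. Applied to 3996 simulated transcripts, the step recovered 100.0% of them. Recovered totals ranged from 4391559 to 26115474 reads, and low values carry a wide counting error.

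Because RPKM values are not counts, log2(RPKM + 1) was fitted with limma-trend (limma 3.58.1, R 4.3.3), over the 12 p53 RNAi libraries (9 residual degrees of freedom), and over all 35 libraries for differences between treatments. A transcript was tested if 3 or more of the 35 libraries had 1 RPKM or more (19206 in all), and those with an adjusted p under 0.05 (Benjamini-Hochberg) were called. The test was checked on simulated data. Nothing in the labels says that replicates came from separate cultures or animals, so p-values measure the spread between libraries, which may be technical. No 2 p53 RNAi libraries of a day came within sampling noise (lowest chi-square per transcript 1.94 over 18 pairs). Library measures were compared by exact permutation tests with scipy 1.17.1.

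Named transcripts are the 2 largest positive and 2 largest negative differences per comparison among called transcripts averaging at least 5 RPKM in a p53 RNAi day group, whose libraries did not overlap where 2 days were compared. The groups, lists and tests were chosen with earlier results of these data known, including the 3 libraries of other groups that stand apart, zfp1 RNAi day 6 replicate 1 and day 13 replicate 5 and unc22 RNAi day 13 replicate 5. Marker and pathway lists and the check of the target gene could not be applied. Alternatives were other fits, pseudocounts, filters, scalings, a replicate block, a fold minimum, limma-voom on recovered reads, thinned reads and leaving out each library. Library quality weights and a component of the deviations as a covariate were added after seeing the data.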

Additional observations from a re-analysis of the deposited data

Results flagged for a closer look

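In 60 groups of 4 libraries, 5 libraries lay so far from the others that the gap passed Dixon's 95% limit, where chance alone flags about 1 group in 20. SMED30008091 had 2.2 RPKM in p53 RNAi day 6 replicate 2, below its other 3 libraries, which lay between 2.84 and 2.87 RPKM. The same transcript had 5.89 RPKM in zfp1 RNAi day 13 replicate 5, against 2.40 to 2.60 RPKM in the others of that group. In that library SMED30004214 had 621 RPKM, against 75.4 to 92.2 RPKM in the others. The 100 most abundant transcripts took 43.4% of reads in p53 RNAi day 6 replicate 4, against 36.7% to 37.1% in the other 3. The SD of deviations from the day mean, over transcripts averaging at least 5 RPKM, was 0.234 on the log2 scale in p53 RNAi day 13 replicate 2, against 0.162 to 0.169 in the others of that day.

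The change from day 9 to day 13 differed between treatments by a test of the difference itself, a limma contrast over 35 libraries. Between p53 and unc22 RNAi 166 transcripts were called, and between p53 and zfp1 RNAi 546. Against unc22 RNAi the log2 differences were 3.99 for SMED30013183, 2.94 for SMED30030712, −1.38 for SMED30008540 and −1.09 for SMED30032654. Against zfp1 RNAi they were 4.19 for SMED30013183, 2.93 for SMED30008091, −3.32 for SMED30024440 and −2.79 for SMED30004214. Why these values differ was not tested.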

How the results depend on the processing

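The later step had more calls than the earlier one under all 28 alternatives. Of 20 results for named transcripts 11 kept their call under every alternative that gave a value, and none changed sign. Some transcripts count more than once, and SMED30013183 kept its call in all its comparisons. The largest falls after day 9, the negative changes of step and the negative differences from zfp1 RNAi each lost their call somewhere. SMED30020396 over the span and SMED30008540 against unc22 RNAi kept theirs. The alternatives reuse the same libraries and are not separate tests. In the order of day 9 against 6, day 13 against 9, day 13 against 6 and the change of step, calls numbered 108, 3004, 2574 and 1142 in a fit of 32 libraries without the 3 that stand apart, 525, 4704, 3076 and 2637 with library quality weights, and 112, 3990, 3160 and 1865 with the first component of the deviations as a covariate, the last 2 chosen after seeing the data. Calls for day 13 against 9, day 13 against 6 and the change of step were 816, 749 and 25 with thinned reads. For the first 2 of these they were 853 and 620 at a mean of at least 5 RPKM, where fewer transcripts were tested, and 272 and 289 at a log2 change of at least 1. Day 9 against 6 gave 2 calls with all 35 libraries, 1 with a pseudocount of 0.1, 12 with one of 5, 1 at a mean of at least 5 RPKM, 3 with quantile scaling and 3 by limma-voom. The change of step gave 80 with a pseudocount of 0.1, 55 with no filter, 58 with quantile scaling and 236 by limma-voom.

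For the differences of changes from unc22 RNAi at days 13 and 9, from zfp1 RNAi at these days and from unc22 RNAi at days 9 and 6, the fit of 32 libraries gave 268, 946 and 13. With the compared treatments alone the first 2 were 472 and 216, and with a pseudocount of 0.1 they were 93 and 317. With a pseudocount of 5 the first was 290. Leaving out each library gave 0 to 182 calls for day 9 against 6, 646 to 2377 for day 13 against 9, 679 to 2151 for day 13 against 6 and 11 to 734 for the change of step. It gave 71 to 203 for the difference from unc22 RNAi, 275 to 1189 for that from zfp1 RNAi and 0 to 0 for that from unc22 RNAi at days 9 and 6. The cause of these shifts was not tested.

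Replicate numbers showed no clear pairing of the libraries. Of 12 same-numbered pairs 2 had deviations correlated above 0.1 (range −0.28 to 0.35, over all transcripts tested). A library correlated best with its own number in 5 of 24 comparisons. The deviations shared by libraries of different numbers could hide a weaker pairing, so these values do not exclude one. With the replicate number as a block, calls were 0, 899, 796 and 20 for the 4 comparisons within p53 RNAi, and 131, 582 and 1 for the 3 differences in the order above.

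No library measure passed under another threshold, thinned reads or the 10 most abundant transcripts. With 3 libraries against 4 the smallest possible p is 0.057, so leaving out 1 library is no test of them. Leaving out 1 library put the difference in transcripts at 1 RPKM or more at −593 to −296 for day 9 minus 6 and at 345 to 562 for day 13 minus 9. The share of the 100 most abundant changed by 0.46 percentage points from day 6 to 9, and by −0.810 to 2.08 when 1 library was left out. It was −0.0776, −0.149, −0.0122 and −0.810 without day 6 replicates 1, 2 and 3 and day 9 replicate 2. For day 13 minus 9 it was 0.136 to 2.30. edgeR's test on the recovered reads was not run. Depth, 4452069 to 18100630 reads, limits transcripts of few reads most.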
